A study of Homo sapiens with 4 samples.

Results

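NGFR and 5 further genes of neurotrophin signalling were examined in H226 cells, an established cell line that the labels class as human squamous carcinoma of the lung. The members were the rows of the deposited count table with the symbols NGFR, SORT1, NTRK2, NTRK3, BDNF and NTF3, and all 6 were found among 25369 genes. They were selected on this same comparison, NGFR for its large log2 fold change between shp63 and shControl and the others as its known partners, with their counts in view. Their values, and the calls made on them, are a description and no test of the members. The shp63 group had 2 cultures expressing an inducible short hairpin RNA against p63, and the shControl group had 2 cultures expressing an inducible non-targeting hairpin. Every culture, controls included, was kept for 6 days in 1 µg/mL doxycycline, which switches the hairpins on. The labels call the cultures of a group independent biological replicates and name 1 construct per group, so effects of a hairpin and of its target cannot be told apart. Whether each line is 1 clone or a pool is not given in the sources used here.

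Neurotrophins are secreted growth factors made as longer precursors and cut to their mature form. Mature ligands signal through Trk receptor tyrosine kinases, where BDNF and NT-4 bind TrkB and NT-3 binds TrkC. The p75 neurotrophin receptor, encoded by NGFR, binds every neurotrophin, and together with sortilin, encoded by SORT1, it also binds the uncut precursors. In squamous epithelia NGFR is known as a surface marker of basal cells, the layer that p63 maintains.

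The bases just upstream of the transcription start are shown for SORT1, the most abundant member. The run is 250 bases of the GRCh37 reference, 5′ to 3′ on the strand of the gene, ending at the base before the start of the GENCODE canonical transcript. Capitals mark the GC box GGGCGG, a site known to bind SP1, on either strand.
SORT1 (chr1:109940541-109940790, minus strand): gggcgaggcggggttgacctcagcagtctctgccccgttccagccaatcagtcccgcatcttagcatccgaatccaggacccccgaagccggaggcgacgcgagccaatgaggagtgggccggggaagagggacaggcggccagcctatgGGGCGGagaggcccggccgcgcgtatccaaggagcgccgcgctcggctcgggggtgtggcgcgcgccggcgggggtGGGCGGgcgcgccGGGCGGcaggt
The SORT1 window held 3 GC boxes, and a GC box was present in 59.1% of 19867 such windows of protein-coding genes. Its GC content was 74%, against a median of 63.2% over all windows. The core of the p53-family full site (paired CWWG half-sites, the same on both strands) was not found in it and was present in 3.14% of all windows.

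Depth allowed levels well under 1 CPM (read counts scaled to library size) to be read. A gene at 1 CPM rested on 50.1 to 55.5 reads per library, and the 3 reads taken here as the floor came to 0.0541 to 0.0598 CPM. The hairpin target was lower in the shp63 libraries, where TP63 had 1596 and 1530 reads, against 7533 and 7364 reads in the shControl libraries. At a threshold of 0.05 on the adjusted p of edgeR, 11033 of 14901 tested genes were called, a background share of 74.0%, with 36.9% higher and 37.1% lower in shp63. Replicates were close, and the common biological coefficient of variation was 0.0308, so calls were made for small differences. Of the 6 members 5 passed the low-count filter and 4 of those were called, NGFR lower and SORT1, NTRK2 and BDNF higher in shp63. Since the members were selected on this same comparison, their calls cannot be weighed against the background share. NTRK2 would not have passed the filter on its shControl libraries alone.

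**Figure D1:**
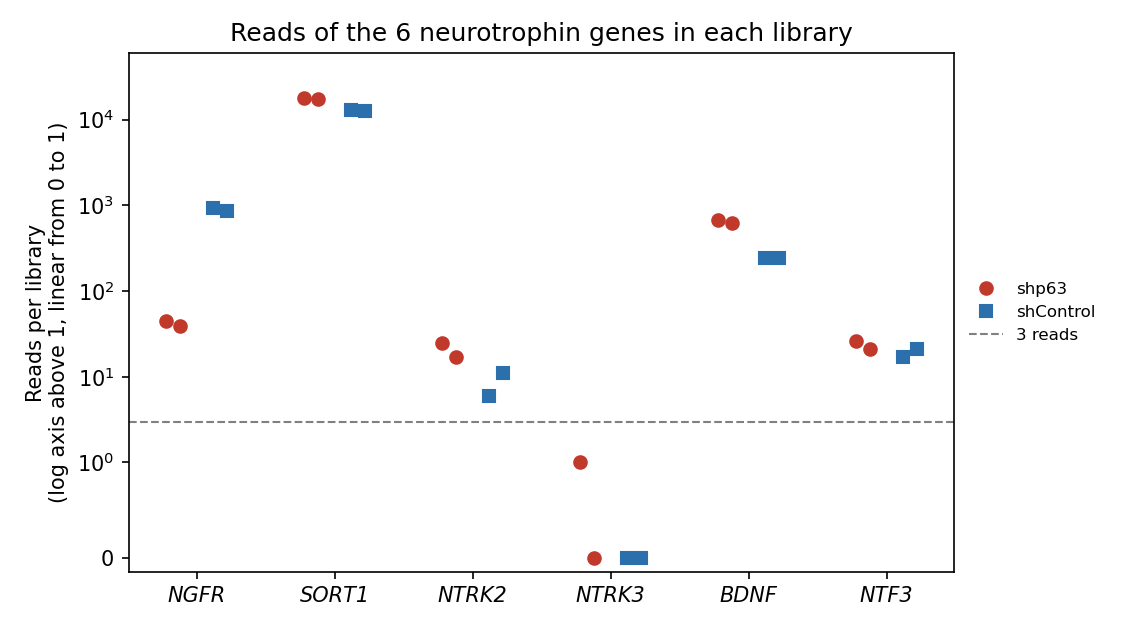
Reads of each member (horizontal axis) in each library (vertical axis, log above 1 read and linear from 0 to 1). Red circles are the 2 shp63 libraries, blue squares the 2 shControl libraries and the dashed line the floor of 3 reads. NGFR had 45 and 39 reads in shp63 against 930 and 861 in shControl, while NTRK3 lay under the floor in every library.

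NGFR occupies bases 47572655 to 47592370 of chromosome 17 (plus strand), and its canonical transcript has 6 exons. It had 45 and 39 reads in the shp63 libraries, and the shControl libraries held 930 and 861 reads. Both shp63 libraries were far under both shControl libraries, yet well above the floor of 3 reads. The normalised read count was 0.821 ± 0.0617 CPM in shp63 and 16.4 ± 0.535 CPM in shControl (SD, n = 2 each). The log2 fold change of shp63 over shControl was -4.31 (SE 0.111), a 19.9-fold lower level. From the summed reads alone the ratio was 0.0501, with an exact 95% interval of 0.0398 to 0.0624. The SE is approximate and understates the error of NGFR, since this counting interval alone is wider than it implies. By log2 fold change NGFR ranked 6 from the lowest of 14901 tested genes. Its fall was greater than that of the hairpin target, so NGFR reads per 1000 TP63 reads were 28.2 and 25.5 in shp63 and 123 and 117 in shControl. The annotation used here places 2 antisense loci over NGFR exons, neither with a row of its own in the count table, and the strand setting of the counting is not given.

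SORT1, which encodes sortilin, a sorting receptor of the Golgi and endosomes and the partner of p75 for precursor ligands, was the most abundant member. The gene lies on chromosome 1 from 109852190 to 109940540 on the minus strand. It had 18002 and 17292 reads in shp63 libraries and 13002 and 12562 reads in shControl libraries, and the groups did not overlap. Its level was 345.5 ± 0.826 CPM in shp63 and 234 ± 0.574 CPM in shControl (SD, n = 2 each), above 96% of tested genes on average. The log2 fold change was 0.56 (SE 0.0291), a 1.48-fold higher level. It was not called by the test for a change beyond 1.5-fold, which called 22.7% of all tested genes. That test called 3 of the 5 tested members (NGFR, BDNF and NTRK2), which is a description, since they were selected on this comparison. NTRK2 rested on few reads, and the exact 95% interval of its ratio of summed reads began at 1.47.

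The Trk receptor genes were near or under the floor. NTRK2, encoding TrkB, the receptor of BDNF and NT-4, lies on chromosome 9 from 87283290 to 87710666. It had 25 and 17 reads in shp63 libraries and 6 and 11 reads in shControl libraries. All 4 libraries lay above 3 reads and the groups did not overlap, but the nearest libraries of the groups differed by only 6 reads. The level was 0.410 ± 0.1 CPM in shp63 and 0.156 ± 0.0682 CPM in shControl (SD, n = 2 each), with a log2 fold change of 1.39 (SE 0.41). The ratio of summed reads was 2.64, with an exact 95% interval of 1.47 to 4.95. edgeR called NTRK2, but DESeq2 did not, and the call was lost without shp63 replicate 1 (log2 fold change 1.11) and without shControl replicate 1 (log2 fold change 0.99).

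NTRK3, encoding TrkC, the receptor of NT-3, lies on chromosome 15 from 88402982 to 88800022. It had 1 read and 0 reads in shp63 libraries and 0 reads in both shControl libraries. Every library was under the floor, so no fold change is given and no difference was detectable at this depth. Its summed reads allow at most 5.57 reads in shp63 and 3.69 in shControl (exact 95% Poisson limits).

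Among the ligands, BDNF, encoding brain-derived neurotrophic factor, was the more abundant member. The gene lies on chromosome 11 from 27676440 to 27743605 on the minus strand. It had 673 and 621 reads in shp63 libraries and 246 and 241 reads in shControl libraries, with no overlap between groups. The level was 12.7 ± 0.390 CPM in shp63 and 4.46 ± 0.0329 CPM in shControl (SD, n = 2 each), and the log2 fold change was 1.51 (SE 0.0806), a 2.84-fold higher level. BDNF-AS, an antisense transcript that shares 988 exonic bases with BDNF, had 67 and 61 reads in shp63 libraries and 51 and 43 reads in shControl libraries. Reads of the pair in the shared bases cannot be told apart without the strand setting.

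NTF3, encoding NT-3, lies on chromosome 12 from 5541274 to 5630702. It had 26 and 21 reads in shp63 libraries and 17 and 21 reads in shControl libraries. Shp63 replicate 2 and shControl replicate 2 had the same number of reads, and only after scaling to library size did the groups not overlap. The level was 0.459 ± 0.0573 CPM in shp63 and 0.349 ± 0.0594 CPM in shControl (SD, n = 2 each). The log2 fold change was 0.40 (SE 0.316) and was not called, and the ratio of summed reads was 1.32, with an exact 95% interval of 0.844 to 2.08. A share of 86.4% of all tested genes had groups that did not overlap, as did the 5 tested members.

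**Figure D2:**
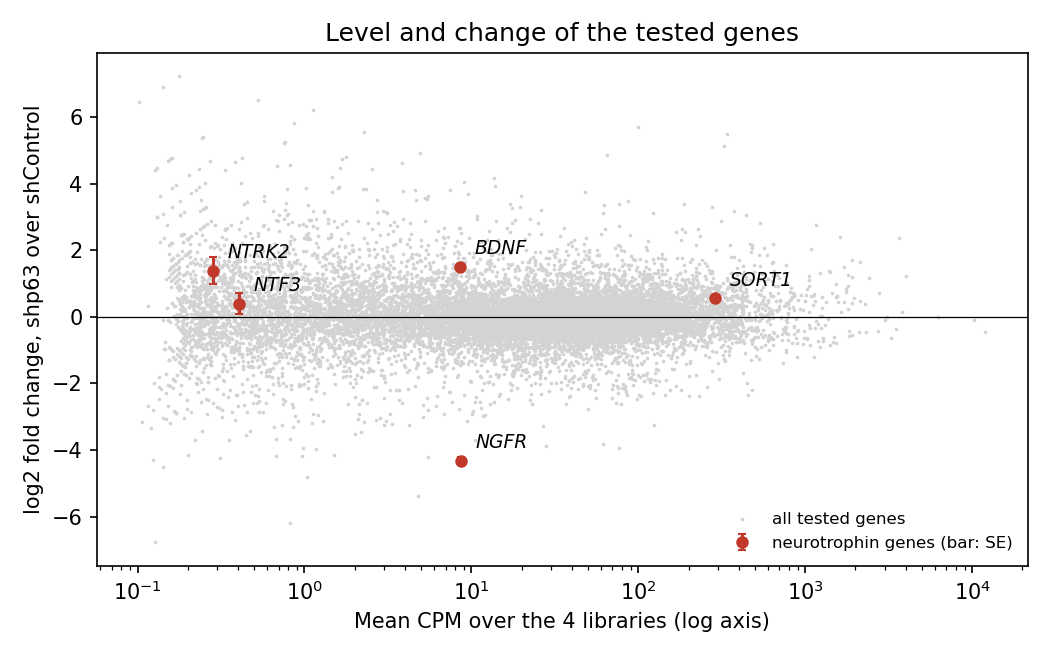
Each point is a tested gene, with its mean CPM over the 4 libraries on the horizontal log axis and the log2 fold change of shp63 over shControl on the vertical axis. The 5 tested members are in red with their approximate SE, from NGFR at -4.31 to BDNF at 1.51. The bar of NGFR is shorter than its counting error. NTRK2 and NTF3 lie at the low end of the level axis.

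Levels of different genes were compared per length, as CPM per kilobase of canonical transcript. In shp63 the order was SORT1 (49.4 ± 0.12), BDNF (3.18 ± 0.0979), NTF3 (0.343 ± 0.0427), NGFR (0.241 ± 0.0181) and NTRK2 (0.0473 ± 0.0115), with NTRK3 under the floor (SD, n = 2). In shControl it was SORT1 (33.5 ± 0.0823), NGFR (4.81 ± 0.157), BDNF (1.12 ± 0.00824), NTF3 (0.260 ± 0.0443) and NTRK2 (0.018 ± 0.00787). NTF4, a ligand outside the members, was at 3.78 ± 0.0348 in shp63 and 6.15 ± 0.0355 in shControl. NGFR thus stood above BDNF and NTF3 but under NTF4 in shControl, and under BDNF and NTF4 in shp63. In shp63 NTF3 and NGFR were neighbours whose exact 95% counting intervals overlapped, at 0.252 to 0.456 for NTF3 and 0.192 to 0.299 for NGFR. The transcript actually expressed was not resolved by gene counts, so these per-length levels rest on the annotated canonical form.

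Ratios within a library do not depend on scaling between libraries. BDNF reads per NGFR read were 15 and 15.9 in shp63 and 0.265 and 0.280 in shControl. SORT1 reads per NGFR read were 400.0 and 443 in shp63 and 14 and 14.6 in shControl. The receptor NGFR was thus outnumbered by both transcripts in shp63, while in shControl it had more reads than BDNF. These libraries are of bulk RNA, in which fewer cells with a transcript and less of it per cell cannot be told apart.

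**Figure D3:**
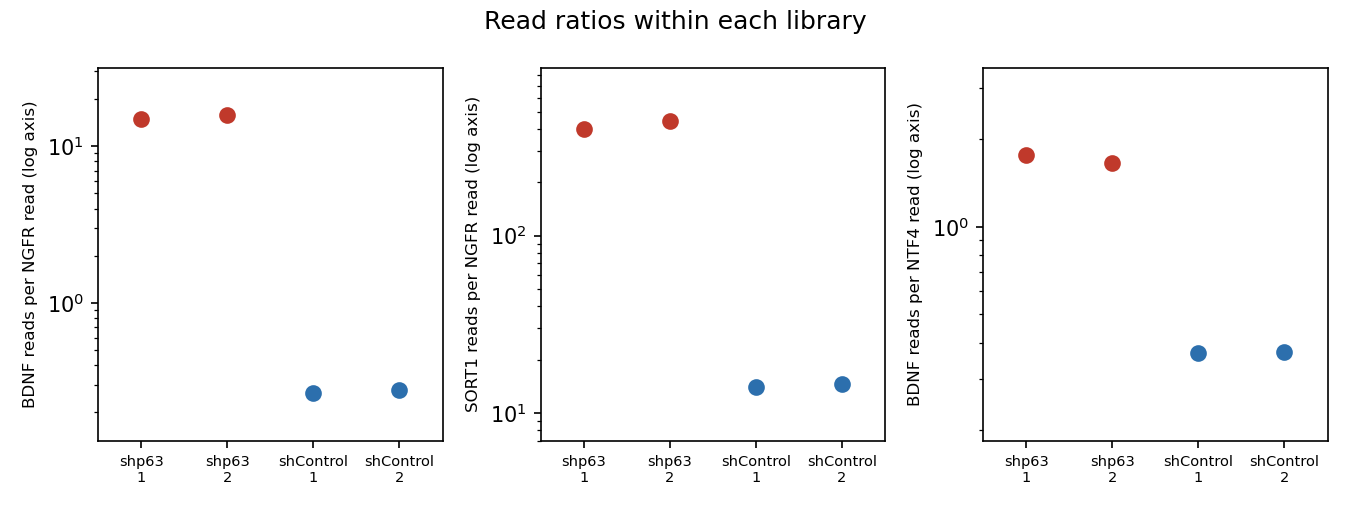
Read ratios in each library on log axes, for BDNF over NGFR (left), SORT1 over NGFR (middle) and BDNF over NTF4 (right). Red points are shp63 libraries and blue points shControl libraries. In each panel both shp63 libraries lay above both shControl libraries.

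NTF4, encoding NT-4, the other TrkB ligand, fell to 383 and 374 reads in shp63 libraries, against 666 and 651 in shControl libraries. Its log2 fold change was -0.70 (SE 0.0726; adjusted p = 1.36e-08, edgeR with Benjamini-Hochberg). BDNF reads per NTF4 read were 1.76 and 1.66 in shp63 and 0.369 and 0.370 in shControl. BDNF thus had more reads than NTF4 in shp63, and fewer in shControl. The BDNF transcript is the longer, and per kilobase NTF4 stood above BDNF in both groups. These levels were 3.78 for NTF4 and 3.18 for BDNF in shp63, and 6.15 and 1.12 in shControl. NTF4 shares 505 exonic bases with another protein-coding locus on its strand in the annotation used here. Antisense loci share 597 and 67 of its exonic bases. None of these has a row of its own in the count table. The annotation and strand setting of the counting are not given, so their effect on the NTF4 count is not known. Nor is the effect on the BDNF count of the 988 exonic bases that it shares with BDNF-AS. The order of the close per-kilobase levels in shp63 is therefore uncertain.

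Of 12 listed receptor partners and other ligands 6 were tested, of which 2 rose, 1 fell (NTF4) and 3 were not called (RTN4R, RTN4 and TNFRSF19). That is a share called of 50%, against 74.0% over all tested genes. Their median log2 fold change was 0.17, against -0.01 over all tested genes. The 2 that rose were sorting receptors of the same family as sortilin. SORCS2 was at 55.7 ± 0.0723 CPM in shp63 and 38.1 ± 2.04 CPM in shControl, and SORL1 at 54.7 ± 1.41 CPM in shp63 and 41.7 ± 3.08 CPM in shControl (SD, n = 2 each). Their log2 fold changes were 0.55 for SORCS2 (adjusted p = 1.19e-10) and 0.39 for SORL1 (adjusted p = 1.64e-07; edgeR, Benjamini-Hochberg). SORCS1, SORCS3 and LINGO1 never exceeded 10 reads and were not tested. Without shControl replicate 2 the list had 4 genes called higher, and without shp63 replicate 2 or shControl replicate 1 it had 2 called lower.

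Genes of the proteases that cut neurotrophin precursors and p75 itself were mostly higher in shp63. Of 18 listed genes 15 were tested, 11 rose, 3 fell and 1 (PSEN2) was not called, a share called of 93.3% against 74.0% over all genes. The list median was 0.68 on the log2 scale. PCSK5, a proprotein convertase, had 1921 and 1826 reads in shp63 and 642 and 624 reads in shControl (log2 fold change 1.66, adjusted p = 1.22e-17, edgeR with Benjamini-Hochberg). The convertase genes FURIN, PCSK1, PCSK6 and PCSK7 rose too, FURIN with a log2 fold change of 1.26. NCSTN and APH1B, subunits of gamma-secretase, which cleaves p75 in the membrane, had log2 fold changes of 1.34 and 1.37. NCSTN was at 318 ± 5.93 CPM in shp63 and 126 ± 1.61 CPM in shControl (SD, n = 2 each). ADAM10, a sheddase, rose with a log2 fold change of 0.91, while ADAM17, the sheddase known to act on p75, fell slightly (-0.17, adjusted p = 0.000631, edgeR with Benjamini-Hochberg). The others that fell were PLAT, encoding tissue plasminogen activator (log2 fold change -0.67), and the gamma-secretase subunit gene APH1A (-0.09). MMP7, a secreted metalloprotease gene, rose near the floor, with 18 and 16 reads in shp63 and 1 and 2 reads in shControl. It is among the 11 genes that rose but would not have been tested on its shControl libraries alone.

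Adaptors and effectors of p75 moved both ways. Of 23 listed genes 21 were tested, 7 rose, 9 fell and 5 were not called, with a median log2 fold change of -0.03. The share called, 76.2%, was close to the 74.0% over all tested genes. MAGED1, a MAGE protein that binds the p75 intracellular domain, was at 103 ± 0.427 CPM in shp63 and 64 ± 3.07 CPM in shControl (SD, n = 2 each), a log2 fold change of 0.69 (adjusted p = 1.52e-12, edgeR with Benjamini-Hochberg). MAGEH1, of the same family, rose with a log2 fold change of 1.04, and MYD88, an adaptor of innate immune receptors, with 0.52. CAV1, encoding the caveolar coat protein caveolin-1, fell the most, with 3280 and 3349 reads in shp63 and 15034 and 14646 reads in shControl (log2 fold change -2.07, adjusted p = 1.1e-22, edgeR with Benjamini-Hochberg). SALL2, a zinc finger factor that binds p75, fell to 28 and 22 reads in shp63, against 107 and 104 in shControl, and PTPN13, a phosphatase, fell with a log2 fold change of -0.91. NGFRAP1, named for its association with p75, differed by a small amount, at 77.7 ± 0.115 CPM in shp63 and 84.7 ± 1.13 CPM in shControl (log2 fold change -0.12, called lower).

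Genes of the kinase cascade under Trk receptors moved both ways, mostly by small amounts. Of 40 listed adaptor and kinase genes 38 were tested, 10 rose, 17 fell and 11 were not called, with a median log2 fold change of -0.10. The share called was 71.1%, close to the 74.0% over all tested genes. RPS6KA2, an S6 kinase downstream of ERK, rose to 78.4 ± 1.93 CPM in shp63, against 22.5 ± 0.284 CPM in shControl (SD, n = 2 each; log2 fold change 1.80, adjusted p = 1.16e-19, edgeR with Benjamini-Hochberg). SOS2 and SH2B1, an exchange factor and an adaptor, had log2 fold changes of 0.45 and 0.39. HRAS, a small GTPase, was at 36.2 ± 0.359 CPM in shp63 and 72.2 ± 2.63 CPM in shControl, a 1.99-fold lower level. PIK3R1, a regulatory subunit of PI3 kinase, fell with a log2 fold change of -0.63. These genes also serve many other growth factor receptors.

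Of 12 listed genes known to be induced by neurotrophins in neurons 8 were tested, of which 6 rose and 2 fell, against 36.9% higher and 37.1% lower among all tested genes. Their median log2 fold change was 0.49. NR4A1, an orphan nuclear receptor, had 20641 and 18725 reads in shp63 and 7567 and 8282 reads in shControl (log2 fold change 1.41, adjusted p = 5.3e-09, edgeR with Benjamini-Hochberg). FOS and JUNB, subunits of AP-1, rose with log2 fold changes of 1.03 and 0.64. EGR1, an immediate early zinc finger factor, fell, with 204 and 182 reads in shp63 and 480 and 539 reads in shControl (log2 fold change -1.30, adjusted p = 6.94e-11, edgeR with Benjamini-Hochberg). FOSB was the other that fell (log2 fold change -0.29, adjusted p = 0.047, edgeR with Benjamini-Hochberg), a call lost with DESeq2 and without shp63 replicate 2 (log2 fold change -0.20) or shControl replicate 2 (-0.15). ARC, a neuronal gene of this list, had 0 reads in all libraries.

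**Figure D4:**
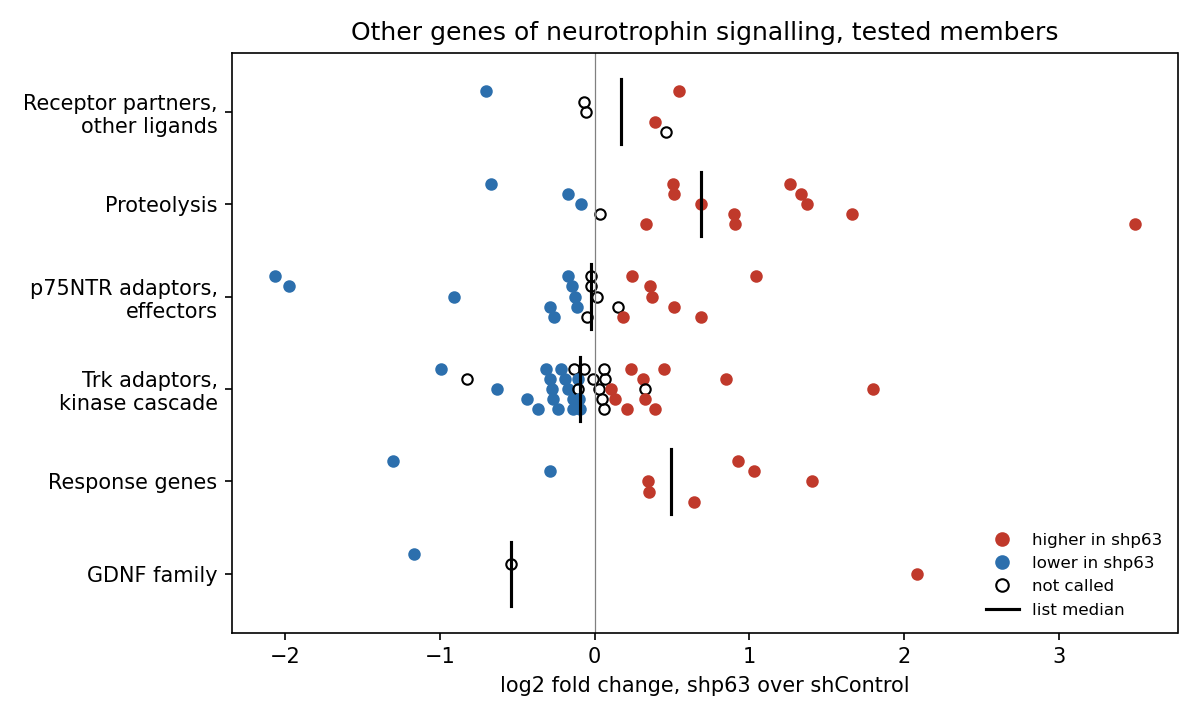
Log2 fold change of shp63 over shControl (horizontal axis) for the tested genes of 6 lists other than the members. Red points were called higher, blue points called lower and open points not called, and black bars are list medians. The proteolysis list had a median of 0.68 and the Trk cascade list one of -0.10.

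Markers of the cell types in which these genes are usually studied were read in the same libraries. Of 10 basal squamous markers 9 fell, among them TP63, the hairpin target itself, and KRT6A rose. Among all tested genes 37.1% were called lower and 36.9% higher, which is the background for this list and those below. KRT5, a basal keratin, was at 148 ± 8.79 CPM in shp63 and 757 ± 70.8 CPM in shControl, and S100A2, a calcium-binding protein gene, was at 23.6 ± 1.07 CPM in shp63 and 224 ± 9.15 CPM in shControl (SD, n = 2 each). The desmosomal gene DSG3 was at 29.5 CPM in shp63 and 130.2 CPM in shControl, TRIM29 at 498 CPM in shp63 and 1042 CPM in shControl, and ITGA6 at 138.5 CPM in shp63 and 185 CPM in shControl. The basal list, TP63 included, summed to 880 and 897 CPM in shp63 and 2560 and 2430 CPM in shControl. Its part in the difference of NGFR was not tested. Of 10 neuronal and neuroendocrine markers 6 had 0 reads in every library. Of the 3 tested 1 rose and 1 fell, and the list's sum was 0.923 and 0.937 CPM in shp63 and 2.22 and 2.14 CPM in shControl. Of 8 Schwann cell and neural crest markers SOX10 and S100B were at 0 reads throughout, and of the 4 tested 2 rose and 1 fell. That list summed to 136 and 133 CPM in shp63 and 77 and 78.4 CPM in shControl, nearly all from ERBB3, a receptor also made by epithelia. The mesothelial list summed to 678 and 684 CPM in shp63 and 415 and 440 CPM in shControl, mostly MSLN and UPK3B, with WT1 at 0 reads in shp63 and 3 and 4 reads in shControl. Of 6 mesothelial markers 3 were tested, 2 rose and BNC1 fell, to 47.7 CPM in shp63, against 80.2 CPM in shControl. The fibroblast list summed to 93.4 and 85.7 CPM in shp63 and 112 and 117 CPM in shControl, mostly COL1A1, with DCN at 0. Of its 8 genes 3 were tested, FAP rose and 2 fell. The leukocyte and endothelial list summed to 199 and 197 CPM in shp63 and 62.7 and 67.6 CPM in shControl, mostly the endothelial cadherin gene CDH5, while PTPRC never exceeded 8 reads. Of its 8 genes 5 were tested, 3 rose and 2 fell. CHGB and CDH19, which rose, would not have passed the low-count filter on their shControl libraries alone. Likewise SOX2 and PDGFRB, which fell, would not have passed it on their shp63 libraries alone. The part of these lists in the members' values was not tested.

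Genes with the most similar profile were sought among 12928 others of at least 1 CPM, by the root mean square difference of log2(CPM + 0.5) centred on each gene's mean over the 4 libraries. Closest to NGFR were SERPINB13 (0.0698), a serpin of squamous epithelia, then RCSD1 (0.078) and IP6K3 (0.0879). SERPINB13 had 409 and 420 reads in shp63 and 6484 and 5966 reads in shControl. Closest to BDNF were DGCR5 (0.00893), FLJ23867 (0.0113) and ADAM12 (0.014), the last a metalloprotease gene with 5581 and 5108 reads in shp63 and 2115 and 2119 reads in shControl. Closest to SORT1 were FUZ (0.00378), ALKBH7 (0.00433) and MAN2B1 (0.00481), which encodes a lysosomal mannosidase. With 4 libraries in 2 groups this measure mostly reads the size of the difference between groups after 0.5 is added to each CPM. That addition shrinks the difference of genes at low CPM. SERPINB13, RCSD1 and IP6K3 were 14.04-fold, 14.85-fold and 41.33-fold lower in shp63, against 19.89-fold for NGFR.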

How the data were processed

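Polyadenylated RNA was read in 4 libraries of H226 cells. The authors aligned reads with TopHat2 2.0.13 to GRCh37 and counted them per gene with HTSeq 0.6.1, per the series' design text and the submitters' processing notes. The gene annotation and the strand setting are not given in the sources used here. The deposited table holds raw read counts, 1 row for each of 25369 gene symbols. Library totals ran from 51926832 to 53924761 counts.

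The test was that of edgeR 4.0.16 (R 4.3.3), with TMM factors, filterByExpr with a minimum count of 10 and a robust quasi-likelihood model with group as the only term. The Benjamini-Hochberg adjustment ran over 14901 tested genes, and calls are at an adjusted p under 0.05. CPM values use the TMM factors. The SE of a log2 fold change is its absolute value over the square root of the edgeR F statistic. It is approximate and not a fitted standard error. Gene positions, transcript lengths and promoter bases came from GRCh37 with GENCODE v44 lifted to that build. The test was checked on simulated counts in which only a small part of the genes changed. That check does not cover change as widespread as in these data. Alternatives were DESeq2 1.42.0, voom of limma 3.58.1, RLE size factors, library totals, other low-count filters, a replicate block, a test beyond 1.5-fold and leaving out each library.

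The members and lists were chosen with earlier results of these data known. For the 6 members themselves no p-value is given, since their values in this contrast were known when they were chosen. In each pathway list, up to 3 called genes per direction with the largest log2 fold changes and at least 1 CPM were named. FURIN, the other PCSK genes, ADAM10, MMP7, NGFRAP1, genes named to spell out a small count and those at few or no reads were chosen after their values were seen. Counting intervals cover counting error only. Some genes under this rule and some sequences are not reported here.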

Additional observations from a re-analysis of the deposited data

How the results depend on the processing

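The 19 values and counts were recomputed under 13 alternatives. Of 245 recomputed values 213 stayed within the spread between replicates, or within 1.5 times for counts, and 32 moved. Of the fold changes 0 changed sign, while counts of calls, most of the values, cannot do so. The members' fold changes under the test beyond 1.5-fold are those of the main fit by construction. The test beyond 1.5-fold called 1894 genes higher and 1491 lower, together 22.7% of tested genes. Higher and lower, it called 0 and 0 receptor partners, 8 and 0 proteolysis genes and 2 and 3 p75 adaptors. It called 1 and 1 Trk cascade genes, 2 and 1 response genes and 1 and 1 GDNF family genes. Fewer calls follow from its stricter null. Receptor partners called lower were 2, RTN4 joining NTF4, with library totals, with no filter, with the 1 CPM filter and with the crossed block. Response genes called lower were 1 with RLE size factors, the 1 CPM filter, DESeq2, limma-voom and the replicate block, each losing FOSB. The 1 CPM filter left 0 GDNF family genes higher, since RET did not pass it. With library totals the log2 fold change was -4.40 for NGFR, 1.42 for BDNF and 0.47 for SORT1. That of SORT1 was 0.57 with RLE size factors and 0.56 with no filter. Leaving out 1 library gave 2 to 4 receptor partners higher and 1 to 2 lower, 1 to 2 response genes lower, and log2 fold changes of 0.55 to 0.56 for SORT1, -4.39 to -4.24 for NGFR and 0.99 to 1.89 for NTRK2. The 4 receptor partners called higher included TNFRSF19 (log2 fold change 1.13) without shControl replicate 2. Where no cause is named, the cause was not tested. Same-numbered samples deviated in opposite directions (correlation -0.24 across genes), and the labels give the numbers no meaning. The replicate block called 5408 genes higher and 5450 lower, and a crossed block, added after seeing the data, 5659 and 5728. Depth limits NTRK2, NTRK3 and NTF3, which had 26 reads or fewer in each library.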

Other observations

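The GDNF family, another group of neurotrophic factors that signals through the receptor tyrosine kinase RET, was read from the same tables. ARTN, encoding the ligand artemin, fell to 388 and 331 reads in shp63 libraries, against 810 and 919 reads in shControl libraries (log2 fold change -1.17, adjusted p = 6.16e-11, edgeR with Benjamini-Hochberg). RET was called higher in shp63, with 60 and 32 reads, against 14 and 9 reads in shControl (log2 fold change 2.08, SE 0.352). RET would not have passed the low-count filter on its shControl libraries alone, so no adjusted p is given for it. Of the 9 listed genes 3 were tested, and the third, NRTN, was not called. The share called was 66.7%, against 74.0% over all tested genes. The co-receptor genes GFRA1 and GFRA3 never exceeded 7 reads, and GFRA2 and GFRA4 had 0 reads in all 4. GFRA3, which encodes the co-receptor of artemin, had 1 read in each shp63 library and 7 and 2 reads in the shControl libraries.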
